A study of Homo sapiens with 6 samples.

Results

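The signal recognition particle (SRP) was followed through the RNA immunoprecipitation of ORC1 by its 7SL RNA copies and by the mRNAs of its proteins. The members were chosen by the known values of this contrast, ORC1 IP against input, so these values are described here without a p-value for any member. In the deposited table they are the rows with the gene symbol RN7SL1, RN7SL2, RN7SL3 or RN7SL4P (4 copies of 7SL RNA) or SRP9, SRP14, SRP19, SRP54, SRP68 or SRP72 (6 protein mRNAs), in all 10 of 23013 genes. All 10 passed the filter on low values (a mean of 10 or more over the 6 libraries), as did 16513 genes in all.

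The study asked which nuclear RNAs come down with ORC1, a subunit of the complex that marks origins of DNA replication, by native RIP-seq, in which a protein is pulled out of uncrosslinked lysate and the accompanying RNA is sequenced. The cells were untreated, asynchronous HCT116, an established human colorectal cancer cell line. The 3 inputs were nuclear lysate that saw no antibody, and the 3 ORC1 IPs were made with an ORC1 antibody from the Bruce Stillman laboratory, with 1 input and 1 ORC1 IP in each of RIP replicates 1, 2 and 3. Libraries were ribosome-depleted total RNA, no control-antibody library was analysed here, and the study describes triplicate experiments, but the labels do not say whether the replicates were separate cultures, so p-values measure the spread between these libraries, which may be technical.

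SRP is the ribonucleoprotein that recognises the signal sequence of a nascent secretory or membrane protein, slows its translation and brings the ribosome to the SRP receptor at the endoplasmic reticulum. Its scaffold, 7SL RNA, is transcribed by RNA polymerase III, is very abundant and mostly cytoplasmic, and is assembled with most of its proteins in the nucleus before export, whereas the proteins come from ordinary mRNAs made by RNA polymerase II. The human genome holds a few functional 7SL genes and many pseudogene copies, and Alu repeats descend from 7SL.

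The 4 named copies are near repeats of each other, which limits what can be read from each of them separately. In GENCODE v44 on GRCh38, RN7SL1 lay at chr14:49586580-49586878 (plus strand, 299 nt), RN7SL2 at chr14:49862550-49862849 (minus, 300 nt), RN7SL3 at chr14:49853616-49853914 (minus, 299 nt) and RN7SL4P at chr3:15738515-15738809 (plus, 295 nt). RN7SL2 and RN7SL3, both functional 7SL genes like RN7SL1, were 98.3% and 97.7% identical to RN7SL1, and the pseudogene RN7SL4P was 87.0% identical. Of all 50-base stretches, 84.4% in RN7SL1, 100% in RN7SL2, 35.2% in RN7SL3 and 58.1% in RN7SL4P were also found in another annotated gene. In another of the 4 named copies, 67.2%, 86.5%, 34.4% and 58.1% were found. The 100% for RN7SL2 counts ENSG00000282885, which has an exon over the same place, and so does not measure repeated sequence alone. The sources used here do not give the treatment of reads with several matches, so the split of reads between the copies is uncertain. RN7SL2 lay inside a long noncoding RNA on its own strand (ENSG00000282885), RN7SL1 opposite RPS29, and RN7SL4P opposite ANKRD28. Among the protein genes, SRP19 overlapped ENSG00000258864, XBP1P1 and ZRSR2P1 on its own strand and REEP5 on the other, SRP54 overlapped SRP54-AS1, and SRP68 overlapped ZACN, the last 2 pairs on opposite strands. Nor do they say whether the strand was used in counting, so the counts of these 6 members are uncertain as well.

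Depth was 13703033 to 17248924 reads on genes in the inputs and 25134156 to 36008733 in the ORC1 IPs. Values are normalised counts, reads per gene divided by the size factor of the library, and are thus relative to the other genes of that library. ORC1 IP replicate 2 stood apart. Its RNAs of the mitochondrial genome made up 5.995% of the reads, against 0.257% and 0.617% in the other ORC1 IPs and 1.49% to 3.28% in the inputs, and the log2 fold changes of the members below are given with and without it. The epithelial markers EPCAM (mean 2639 in inputs), CDH1, KRT8, KRT18 and CDX2 were present, while VIL1 and the hepatocyte marker ALB were near 0, with means of 3.58 and 0.70 in inputs. COL1A1, a fibroblast gene, averaged 232 in inputs and 563 in ORC1 IPs (limma with Benjamini-Hochberg adjustment, adjusted p = 0.0854).

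All 4 copies of 7SL RNA were far lower in ORC1 IP than in input, and no SRP protein mRNA was. RN7SL1, RN7SL2, RN7SL3 and RN7SL4P took the 4 lowest log2 fold changes of the 16513 tested genes, between -7.43 and -6.50, with a median of -6.84 beside a median of 0.01 over all tested genes. All 4 were called lower at a limma adjusted p under 0.05, as were 1.42% of all tested genes, and their 3 ORC1 IP values lay below their 3 input values, as did those of 13.5% of all tested genes. Of the 6 SRP protein mRNAs 0 were called in limma, edgeR or DESeq2, beside 2.28% of all tested genes called higher and 3.69% called in either direction by limma. Their median was 0.22, and 0 of them had all ORC1 IPs above all inputs, as 12.7% of all tested genes did. The choice of members used this contrast, so these counts are a description.

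**Figure D1:**
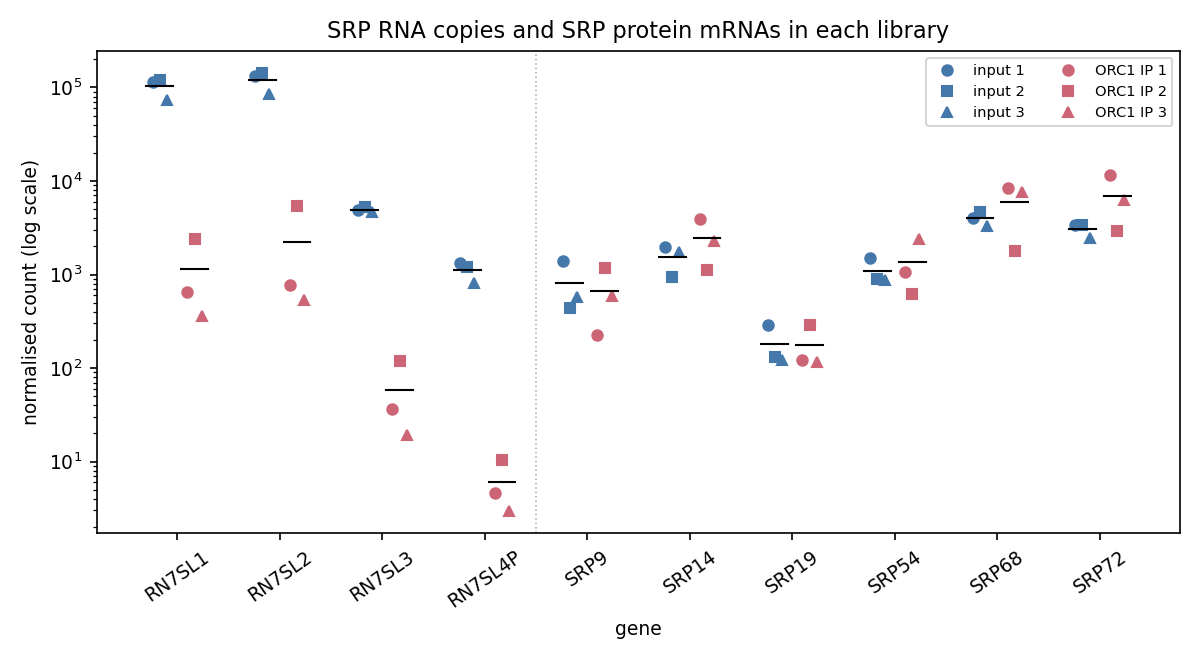
Normalised count (log scale) of each of the 10 members in each of the 6 libraries, blue for input and red for ORC1 IP, with the marker shape giving the replicate and a bar the mean of 3. The ORC1 IP values of the 4 copies of 7SL RNA all lie below their inputs, with replicate 2 the highest of the 3, while the values of all 6 SRP protein mRNAs overlap.

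RN7SL2, the most abundant copy, had 134056, 143939 and 85022 normalised counts in inputs 1, 2 and 3, against 769, 5360 and 535 in ORC1 IPs 1, 2 and 3. Its input mean was 121006 ± 31552 and its ORC1 IP mean 2221 ± 2721 (SD, n = 3), which gave -6.50 ± 0.84 (SE) on the log2 scale. The groups were far apart, but ORC1 IP 2 was several times the other ORC1 IPs. Within replicates the input was 174, 26.9 and 159 times the ORC1 IP, and without ORC1 IP 2 the log2 fold change was -7.52.

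RN7SL1 had 115373, 119700 and 72803 normalised counts in inputs 1, 2 and 3, against 654, 2415 and 364 in ORC1 IPs 1, 2 and 3. The log2 fold change from 102625 ± 25917 to 1144 ± 1110 (SD, n = 3) was -6.91 ± 0.71 (SE), and -7.68 without ORC1 IP 2. Again ORC1 IP 2 held the most and input 3 the least within its group, so that the input was 176, 49.6 and 199.8 times the ORC1 IP in replicates 1, 2 and 3. Such ratios and the markers per replicate rest on the replicate numbers of the labels, and the library titles pair the libraries in the same way. In replicates 1 and 2 the input and the ORC1 IP tended to depart from their group means in opposite directions across genes (Pearson correlations of -0.322 and -0.240). Another pairing was not tested, so that of replicates 1 and 2 stays uncertain.

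RN7SL3 had 4878, 5281 and 4606 normalised counts in the inputs and 36.8, 118 and 19.4 in the ORC1 IPs. Its inputs varied least among the 4 copies, and the log2 fold change from 4922 ± 340 to 58.0 ± 52.5 (SD, n = 3) was -6.77 ± 0.53 (SE), or -7.47 without ORC1 IP 2. RN7SL4P went from 1338, 1196 and 810 in the inputs to 4.61, 10.5 and 2.98 in the ORC1 IPs. These last values rest on 4, 18 and 4 reads, and 4 reads have an exact 95% Poisson interval of 1.09 to 10.2 reads, which covers counting error only. With a log2 fold change of -7.43 ± 0.49 (SE), the pseudogene was the lowest of all tested genes in the fit, with -7.85 without ORC1 IP 2 and -6.69 with a pseudocount of 5 in place of 1.

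As a pool, the 4 copies held 1.40%, 1.25% and 0.849% of the gene reads in inputs 1, 2 and 3. In ORC1 IPs 1, 2 and 3 they held 0.00485%, 0.0542% and 0.00344%, each below every input. The mean share of the inputs was 1.17% ± 0.287 and that of the ORC1 IPs 0.0208% ± 0.0289 (SD, n = 3), or 0.00414% without replicate 2. ORC1 IP 2 thus held most of the 7SL reads found in any ORC1 IP, 13612 against 1272 and 1237, and was also the library with the highest mitochondrial share. The part of mitochondrial RNA in this difference was not tested. The reads of the 6 SRP protein mRNAs made up 0.0689%, 0.0482% and 0.0470% of gene reads in the inputs and 0.0839%, 0.0541% and 0.0718% in the ORC1 IPs, so the groups overlapped. For each read on an SRP protein mRNA there were 20.4, 26.0 and 18.0 reads on 7SL in the inputs, and 0.0579, 1.00 and 0.0478 in the ORC1 IPs.

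The division of reads between the 2 main copies also moved in part. Of the reads on RN7SL1 and RN7SL2 together, RN7SL1 had 46.3%, 45.4% and 46.1% in the inputs. In ORC1 IP 1 it had 46.0% (exact 95% binomial interval 43.1% to 48.8%), in ORC1 IP 2 31.1% (30.3% to 31.8%) and in ORC1 IP 3 40.5% (37.7% to 43.3%). The groups overlapped through ORC1 IP 1, whereas the intervals of ORC1 IPs 2 and 3 lay below every input, and that of ORC1 IP 2 below that of ORC1 IP 3. RN7SL3 made up 1.91% to 2.82% of the pool in inputs and 1.49% to 2.52% in ORC1 IPs, and RN7SL4P 0.443% to 0.523% and 0.132% to 0.323%. Since the copies share most of their sequence, such differences describe the counts and not the output of each gene.

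**Figure D2:**
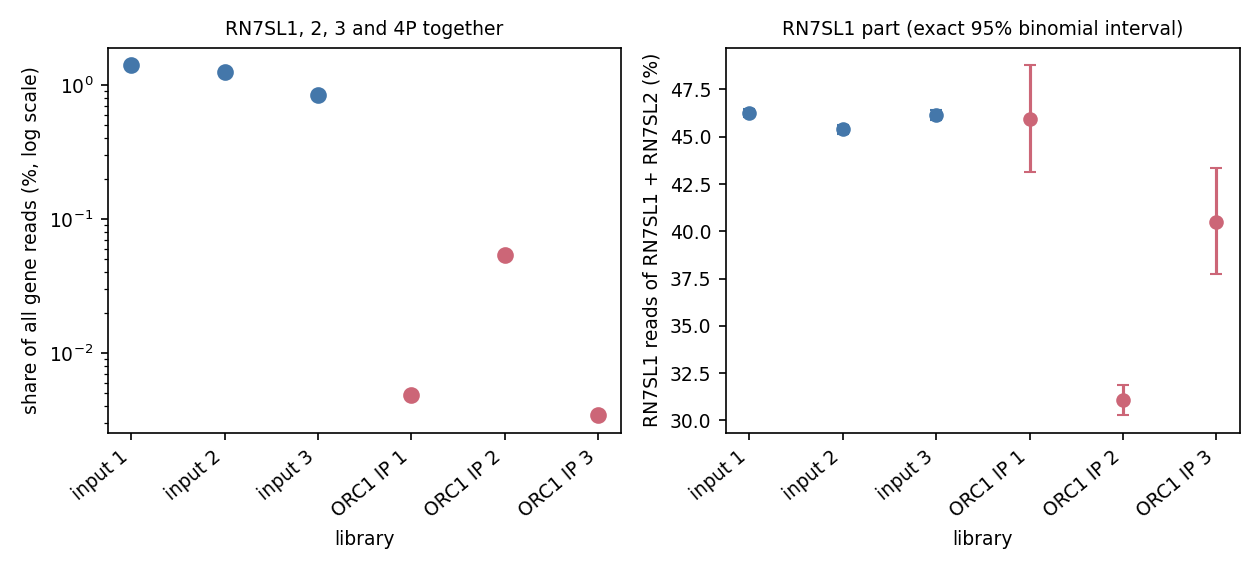
Left, share of all gene reads (%, log scale) that fell on RN7SL1, RN7SL2, RN7SL3 and RN7SL4P together in each library; right, RN7SL1 reads as a percent of RN7SL1 and RN7SL2 reads, with exact 95% binomial intervals that cover counting error only. The pool drops from 0.849% or more in inputs to 0.0542% or less in ORC1 IPs, and RN7SL1 is at 45.4% to 46.3% in the inputs and ORC1 IP 1 but at 31.1% and 40.5% in ORC1 IPs 2 and 3.

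The mRNAs of the SRP proteins were present in both groups, with overlapping values. SRP9 and SRP14 encode the heterodimer that binds the Alu domain of 7SL and slows elongation. SRP9 had 1406, 437 and 570 normalised counts in inputs 1, 2 and 3, against 228, 1177 and 587 in ORC1 IPs 1, 2 and 3. Input 1 was its highest value and ORC1 IP 1 its lowest. SRP14 had 1969, 950 and 1725 in the inputs and 3940, 1124 and 2260 in the ORC1 IPs, with the highest value in ORC1 IP 1 and overlapping groups. The log2 fold changes were -0.38 ± 0.58 for SRP9 and 0.54 ± 0.49 for SRP14 (SE), and -0.94 and 1.01 without ORC1 IP 2. That of SRP9 turned positive without input 1 (0.12) or ORC1 IP 1 (0.24), so the mRNAs of the heterodimer had no common direction.

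SRP19 binds the other end of 7SL and prepares it for SRP54, the GTPase that recognises the signal sequence. SRP19 was the least abundant member mRNA, with 286, 131 and 123 normalised counts in the inputs and 123, 286 and 116 in the ORC1 IPs. Its log2 fold change of -0.06 ± 0.48 (SE) was -0.48 without ORC1 IP 2 and turned positive without input 1 (0.33), ORC1 IP 1 (0.13) or ORC1 IP 3 (0.17). SRP54 had 1487, 905 and 876 in the inputs and 1075, 617 and 2419 in the ORC1 IPs, so that ORC1 IP 3 alone exceeded every input. Its log2 fold change of 0.15 ± 0.48 (SE) was 0.61 without ORC1 IP 2, -0.37 without ORC1 IP 3 and -0.07 with scaling by total count.

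SRP68 and SRP72 encode the largest SRP proteins, which bind 7SL as a heterodimer. SRP68 had 4033, 4615 and 3322 normalised counts in the inputs and 8322, 1781 and 7634 in the ORC1 IPs. SRP72 had 3354, 3366 and 2433 in the inputs and 11625, 2916 and 6251 in the ORC1 IPs. Both were above every input in ORC1 IPs 1 and 3 and not in ORC1 IP 2, which was the lowest of all 6 libraries for SRP68. The log2 fold changes were 0.29 ± 0.59 for SRP68 and 0.98 ± 0.53 for SRP72 (SE), and 1.01 and 1.498 without ORC1 IP 2. That of SRP68 was -0.10 without ORC1 IP 1 and -0.04 without ORC1 IP 3, while SRP72 and SRP14 stayed positive and the 4 copies of 7SL negative under all 17 alternatives tried.

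**Figure D3:**
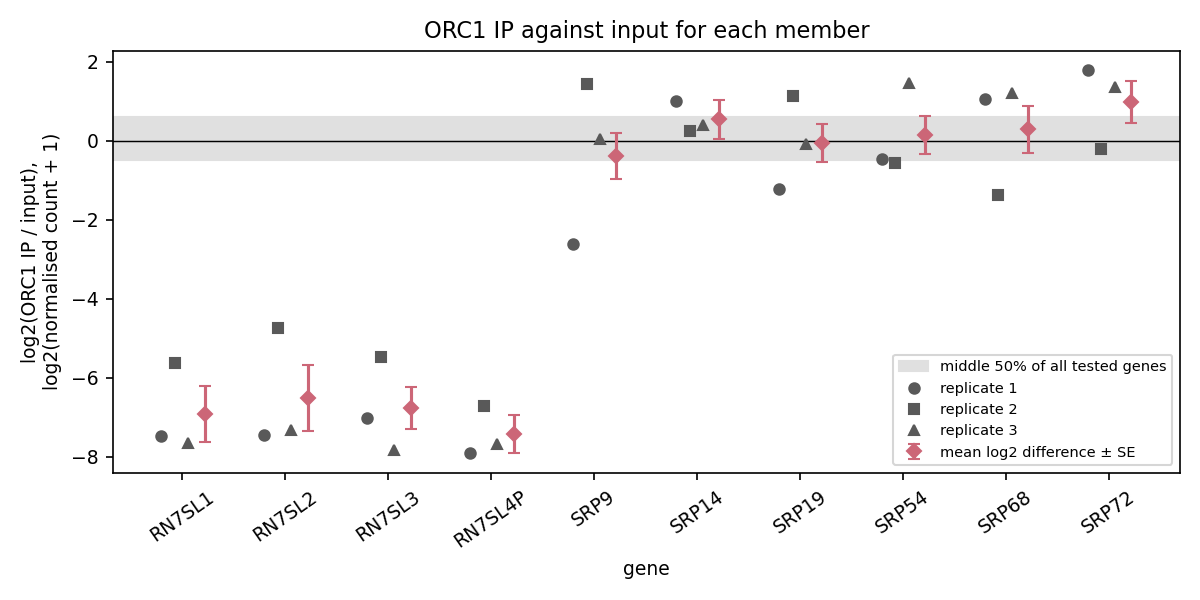
Difference between ORC1 IP and input of log2(normalised count + 1) for each member, with a grey marker for each RIP replicate and a red diamond for the mean ± SE from the fit across all genes; the grey band holds the middle 50% of all tested genes. The copies of 7SL sit between -7.90 and -4.75, with replicate 2 the least negative of the 3, and the SRP protein mRNAs lie on both sides of 0.

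Per kilobase of the canonical transcript, the inputs were ordered RN7SL2 (403352 ± 105173 normalised counts per kb), RN7SL1 (343228 ± 86680), RN7SL3 (16460 ± 1137), RN7SL4P (3778 ± 927), SRP68 (1409 ± 229), SRP14 (1383 ± 475), SRP72 (791 ± 139), SRP9 (543 ± 355), SRP54 (498 ± 158) and SRP19 (64.8 ± 33.1; all SD, n = 3). RN7SL2 was above RN7SL1 in each input, though their means differed by less than the spread between inputs. The means of SRP68 and SRP14, and those of SRP9 and SRP54, also differed by less than that spread. The order of the protein mRNAs depends on the length used: over the merged exons of all transcripts SRP14 (756) came before SRP68 (532), and SRP9 (362) stood well above SRP54 (128). In the ORC1 IPs RN7SL2 (7405 ± 9069) and RN7SL1 (3827 ± 3711) were within the spread of SRP14 (2182 ± 1266), SRP68 (2088 ± 1270) and SRP72 (1798 ± 1140). SRP54 (627 ± 428) and SRP9 (448 ± 324) followed, and RN7SL3 (194 ± 176) and RN7SL4P (20.4 ± 13.3) stood on either side of SRP19 (63.0 ± 34.6). On this per-length scale, then, the input means of the 7SL copies were above every SRP protein mRNA. In the ORC1 IPs those of RN7SL1 and RN7SL2 were within the spread of the more abundant mRNAs, and those of RN7SL3 and RN7SL4P below most SRP protein mRNAs. The spread of RN7SL2 and RN7SL1 was wide through ORC1 IP 2, with 5360 and 2415 normalised counts on about 0.3 kb each. SRP14, SRP68 and SRP72 had 1124, 1781 and 2916 there on 1.1 to 3.9 kb, so both copies stayed above these mRNAs per kb in that library.

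Across the 6 libraries, log2(normalised count + 1) of the 4 copies of 7SL had pairwise Pearson correlations of 0.982 to 0.999. Among the SRP protein mRNAs, SRP9 went with SRP19 (0.84), SRP68 with SRP72 (0.82) and SRP14 with SRP72 (0.80), while SRP9 and SRP14, whose proteins pair, had -0.47. These values describe 6 libraries that share the group difference and carry no test. Among 4585 genes with a mean of at least 1000, CERS6 (0.995), MPZL1 (0.987), DAZAP2 (0.985), MTPN (0.984) and KDELR1 (0.984) were most like the mean of RN7SL1, RN7SL2 and RN7SL3. Their own log2 fold changes were only -1.22 to -1.05. HNRNPA2B1 (0.988), DDX52 (0.983), FXR1 (0.975), DNAJC3 (0.974) and GNAI1 (0.968) were most like the mean of the 6 SRP protein mRNAs.

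The table held 139 further genes with an RN7SL symbol, mostly pseudogene copies. Of the 23 that passed the filter on low values, 16 were called lower (limma with Benjamini-Hochberg adjustment, adjusted p under 0.05) and 0 higher, beside 1.42% and 2.28% of all tested genes, with a median log2 fold change of -3.92 beside 0.01 over all tested genes. In 19 of the 23 all ORC1 IPs lay below all inputs, beside 13.5% of all tested genes. The filter took the mean over both groups, so that low copies could pass through the inputs alone, and these counts are a description. With no filter, 50 of the 139 were called lower and 0 higher, beside 268 lower and 399 higher of all 23013 genes. Called higher were 0 in edgeR and DESeq2 too, beside 425 and 1266 of all 16513 tested genes. Of the 23, 20 had an unadjusted limma p under 0.05 in either direction, for which no share of all tested genes was taken. The 116 copies below the filter together averaged 801 normalised counts per input and 180 per ORC1 IP, and 102 of them had the lower mean in ORC1 IP. The number called lower was 10 without input 2, 5 without input 3 and 5 without ORC1 IP 3.

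RN7SL128P, RN7SL752P, RN7SL151P and RN7SL127P passed the filter on low values through their inputs and may share reads with the named members. Their adjusted p-values are therefore a description and not independent evidence. RN7SL128P (chr6:20421583-20421887, minus strand; 80.0% identical to RN7SL1) went from 178, 224 and 130 normalised counts in the inputs to 4.61, 6.97 and 2.24 in the ORC1 IPs, or -5.05 ± 0.53 on the log2 scale (SE; limma adjusted p = 0.00113). RN7SL752P was alike, from 108 ± 13.8 to 2.10 ± 0.884 (SD, n = 3), at -5.17 ± 0.54 (SE; limma adjusted p = 0.00113). RN7SL151P went from 114 ± 27.5 to 8.37 ± 7.56 (SD, n = 3), at -3.92 ± 0.63 (SE; limma adjusted p = 0.0106, but 0.0731 without input 3 and 0.0518 without ORC1 IP 3). RN7SL127P had 71.7, 72.5 and 33.9 in the inputs and a single read over all ORC1 IPs, so its fitted -5.62 (limma adjusted p = 0.00241) depends on the pseudocount and ranged from -7.72 to -3.57 over the alternatives.

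RN7SL737P, the remaining copy among the 5 with the highest means, did not differ in this way. It had 58.0, 31.5 and 28.1 normalised counts in the inputs and 24.2, 67.9 and 29.1 in the ORC1 IPs, or -0.03 ± 0.55 on the log2 scale (SE; limma adjusted p = 0.981). GENCODE v44 places it in an exon of MRPL42, a mitochondrial ribosomal protein gene, on the same strand. The other copies with overlapping groups, named after their values were seen, were RN7SL529P (0.64), RN7SL832P (-0.65) and RN7SL648P (-2.29, all log2 fold changes). GENCODE v44 annotates RN7SL832P as a long noncoding RNA of 1756 nt.

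Among the 21 tested copies of 7SL size in GENCODE v44 (266 to 318 nt), identity to RN7SL1 ran from 72.2% to 88.6% and went with the log2 fold change at a Spearman correlation of -0.04, over copies that share libraries and, in part, reads. The 11 copies inside a gene on the same strand had a median of -3.49, and the 10 others -4.02. ENSG00000272412, which the table gives no symbol and GENCODE v44 names RN7SL778P, was noticed after its values were seen. It had 88.6, 97.7 and 66.7 normalised counts in the inputs and 0, 0.581 and 0 in the ORC1 IPs, and passed the filter through the inputs alone.

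**Figure D4:**
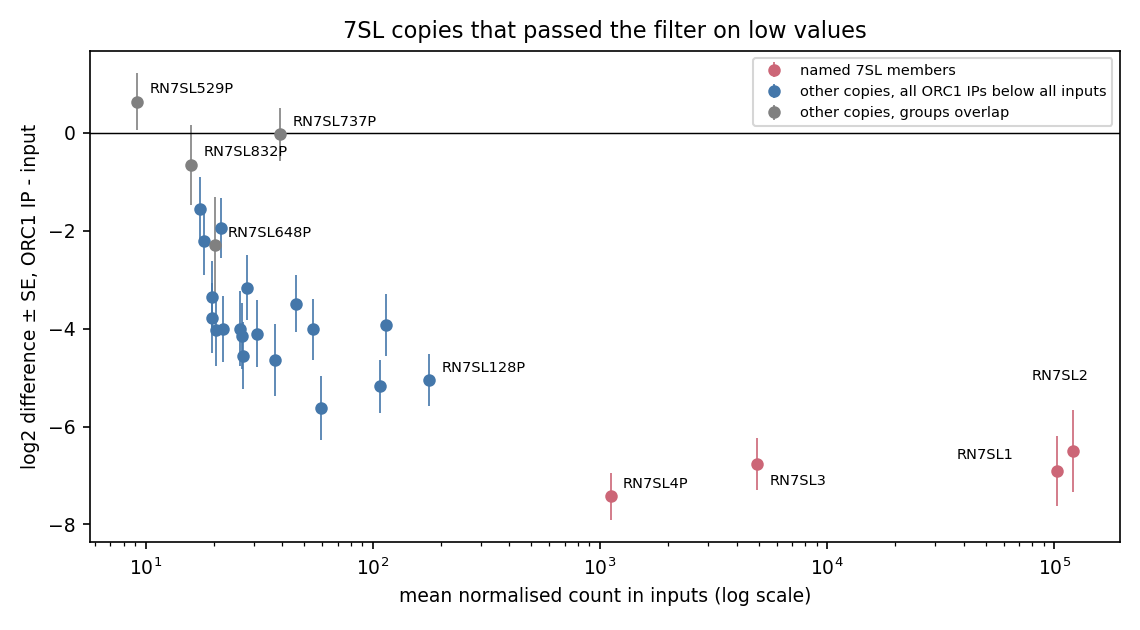
Log2 difference between ORC1 IP and input (± SE) against the mean normalised count in inputs (log scale) for the 4 named 7SL members (red) and the 23 other copies that passed the filter on low values, blue where all ORC1 IPs lie below all inputs and grey where the groups overlap. The 19 blue copies lie below 0, and RN7SL737P, RN7SL529P, RN7SL832P and RN7SL648P are grey.

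Short RNAs as a class had lower values in ORC1 IP, though less so than 7SL. Without the genes that have an RN7SL symbol, 432 tested genes had at most 400 nt of exon in GENCODE v44. Their median log2 fold change was -0.96, and 0 of them was as low as RN7SL2. Of the 432, 321 were negative and 50 called lower, while of all tested genes 50.7% were positive and 1.42% called lower. ENSG00000272412 (RN7SL778P, -6.18, called lower) has no symbol in the table and stayed among them. For the 15724 genes with longer exons the median was 0.02, with 7666 negative and 149 called lower. Of other structural RNAs of RNA polymerase III, RPPH1, the RNA of RNase P, came closest to the 7SL copies and stood at -6.39 ± 0.68 on the log2 scale (SE; limma adjusted p = 0.00113). With 638 nt of exon in GENCODE v44, RPPH1 fell among the longer genes. RMRP, of RNase MRP, had -4.31 ± 1.56 and the transcriptional regulator RN7SK -3.52 ± 1.37 (SE), and they missed the threshold with all libraries (limma adjusted p = 0.131 and 0.158) but passed it without ORC1 IP 2 (0.000688 and 0.000998). The part of RNA length in the 7SL result was not tested.

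The genes on which SRP acts next in the pathway were measured as mRNAs in the same libraries. Of 18 genes of the SRP receptor, the SEC61 translocon and its partners, the translocon-associated proteins and the signal peptidase, 0 were called higher and 3 lower in limma, beside 2.28% and 1.42% of all tested genes, and their median log2 fold change was -0.80 beside 0.01. The 3 were SEC61G (-2.004 ± 0.39; limma adjusted p = 0.0224) and SEC61B (-1.37 ± 0.32; 0.0394), the small subunits of the translocon channel, and SSR4 (-1.77 ± 0.39, SE; 0.0328), a translocon-associated protein. In 9 of the 18 all ORC1 IPs lay below all inputs, and in SEC63 they lay above, beside 13.5% and 12.7% of all tested genes. Without adjustment 9 of the 18 had a limma p under 0.05 in either direction, for which no share of all tested genes was taken. Of the 18, edgeR called 4 and DESeq2 7. Of all 16513 tested genes edgeR called 425 higher and 216 lower, and DESeq2 1266 higher and 718 lower.

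SEC61B had 1031, 873 and 1045 normalised counts in the inputs and 358, 365 and 414 in the ORC1 IPs, and its call was lost with the replicate number as a block (limma adjusted p = 0.0684). With scaling by total count none of the 3 passed, and SEC61G also lost its call without input 2 (0.0702), input 3 (0.188) or ORC1 IP 3 (0.0635). SSR4 lost it without input 2 (0.159), input 3 (0.222), ORC1 IP 1 (0.0673) or ORC1 IP 3 (0.114), and SEC61B lost it on leaving out any library other than ORC1 IP 2 (0.0735 to 0.261). Of the receptor itself, SRPR (the symbol of SRPRA in the table) stood at -0.01 ± 0.44 on the log2 scale (limma adjusted p = 0.989), and the membrane-anchored SRPRB at -1.53 ± 0.41 (SE; limma adjusted p = 0.0594, edgeR 0.0486, DESeq2 0.00725). SRPRB had 1439, 3433 and 2255 in the inputs and 883, 540 and 961 in the ORC1 IPs, without overlap.

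A further 9 genes were of the nascent polypeptide-associated complex, which acts near the ribosome, and of the pathway that inserts tail-anchored proteins. By limma 0 were called in either direction, beside 3.69% of all tested genes, and 1 had an unadjusted p under 0.05. Of these genes edgeR called 0 and DESeq2 1. Their median log2 fold change was -0.58. Of 19 genes that transcribe 7SL or process it, 2 were called higher and 0 lower in limma, beside 2.28% and 1.42% of all tested genes, with a median of 0.38, and 6 had an unadjusted p under 0.05 in either direction. On this list edgeR called 2 and DESeq2 4. Of all tested genes edgeR and DESeq2 called 425 and 1266 higher and 216 and 718 lower. No such share was taken for the unadjusted p. BDP1, a subunit of the polymerase III factor TFIIIB, had 1831, 793 and 438 normalised counts in the inputs and 8168, 4044 and 7443 in the ORC1 IPs, or 2.86 ± 0.53 on the log2 scale (SE; limma adjusted p = 0.0170). SSB, the La protein that binds the 3′ end of polymerase III transcripts, had 1134, 350 and 356 in the inputs and 5657, 1132 and 3336 in the ORC1 IPs, at 2.41 ± 0.60 (SE; limma adjusted p = 0.0472). The SSB groups overlapped narrowly, and those of BDP1 did not.

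With the replicate number as a block, POLR3G (limma adjusted p = 0.0223) and POLR3GL (0.0443), alternative subunits of polymerase III, were called higher too, which brought the count to 4. BDP1 lost its call without input 2 (0.0702), input 3 (0.173) or ORC1 IP 3 (0.0696). SSB lost it without input 2 (0.171), input 3 (0.288), ORC1 IP 1 (0.0895) or ORC1 IP 3 (0.130), with scaling by total count (0.0630) and with a filter at a mean of 50 (0.0511). On the list of 19 genes for making 7SL, 0 were called lower in limma. As only 1.42% of all tested genes were called lower, that count does not set the list apart.

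**Figure D5:**
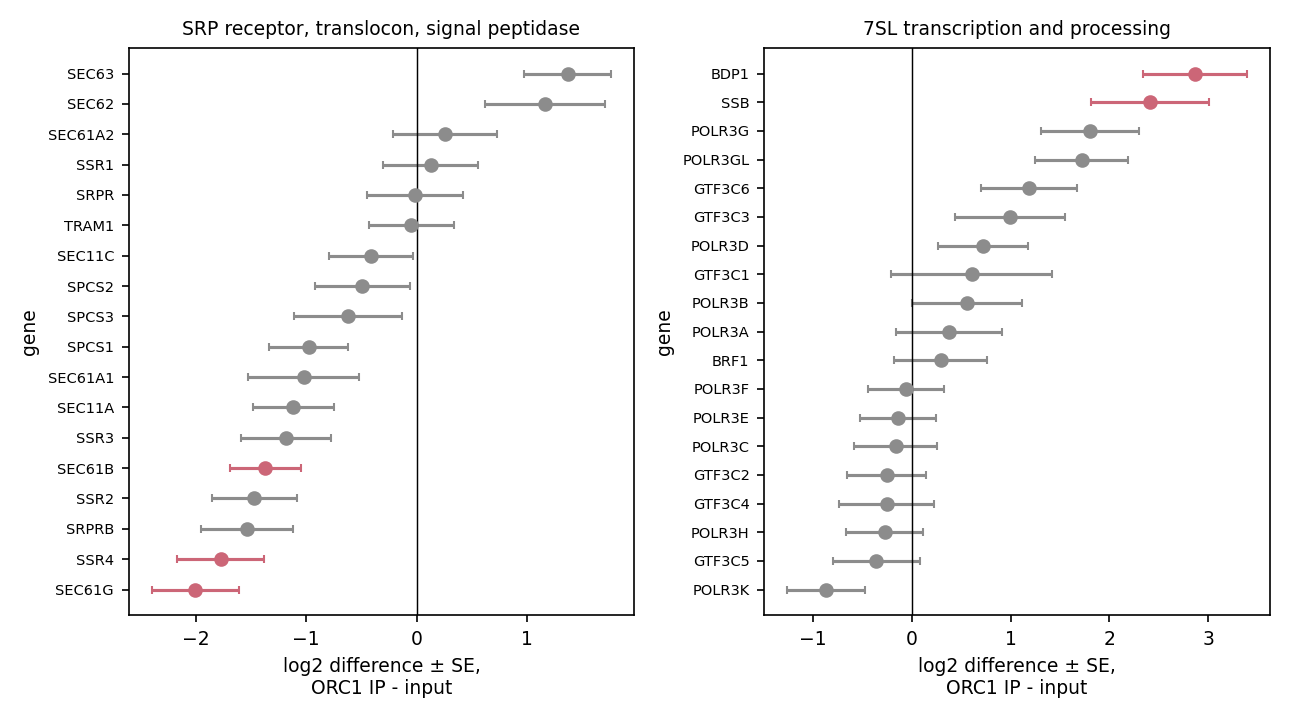
Log2 difference between ORC1 IP and input (± SE) for the mRNAs of the SRP receptor, translocon and signal peptidase (left, 18 genes) and of 7SL transcription and processing (right, 19 genes), red where the limma adjusted p was under 0.05. SEC61G, SSR4 and SEC61B are red on the left, all negative, and BDP1 and SSB on the right, both positive.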

How the data were processed

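Reads were trimmed (Trimmomatic), aligned to hg19 (STAR), cleared of GL contigs and counted per Ensembl gene (featureCounts) by the authors, who divided each library by its size factor. The deposited signal per library is that normalised count, and 100% of the values came out as whole reads within a tolerance of 0.001. The authors' deposited table also holds their log2 fold changes with standard errors, a Wald score, p-values and adjusted p-values, which were not used. Differences of log2(normalised count + 1) were tested with limma 3.58.1 (intensity trend, 3 libraries against 3, no block) on 16513 genes whose mean reached 10, with Benjamini-Hochberg adjustment and a threshold of 0.05. A fold change on this scale understates the change of low genes. Alternatives were pseudocounts of 0.5 and 5, no filter or a filter at 50, other scalings, edgeR 4.0.16 and DESeq2 1.42.0 on recovered reads, a replicate block, and each library left out, with scalings and omissions on the same genes. The fits were tested on simulated data, with a limit on false calls set for limma and edgeR but not for DESeq2.

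The labels tie same-numbered inputs and ORC1 IPs to 1 RIP experiment, and within replicates 1, 2 and 3 the input's and the ORC1 IP's departures from the group mean correlated across genes at -0.322, -0.240 and 0.215. Lengths, positions and identity between copies came from GENCODE v44 (GRCh38), which matched 22313 of 23013 genes. RN7SL1, RN7SL2 and RN7SL3 were matched by symbol and the other members by identifier. The members and gene lists were chosen with earlier results of these data known. Named genes were all members, SRPR, SRPRB, the called genes of each list, the 5 other 7SL copies with the highest mean, RN7SK, RMRP, RPPH1, and the 5 genes most like the 7SL RNAs and most like the SRP protein mRNAs. The sequences of the 7SL copies are not reported here.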

Additional observations from a re-analysis of the deposited data

How the results depend on the processing

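The log2 fold changes of the 4 copies of 7SL were negative, and those of SRP14 and SRP72 positive, under all 17 alternatives. The signs that changed for SRP9, SRP19, SRP54 and SRP68 are given beside those genes. Genes called higher and lower numbered 376 and 234, but 87 and 96 with scaling by total count, which shifted the median over all genes to -0.19 on the log2 scale and the share of calls that were higher from 61.6% to 47.5%, and 1266 and 718 in DESeq2. With 1 library left out they ranged from 6 to 1965 and from 23 to 1053. For the receptor and translocon genes, lower calls (3) were 0 with scaling by total count, 5 with upper quartile scaling and 6 in DESeq2, and 0 to 7 with a library left out, and higher calls (0) were 1 in DESeq2 and 0 to 1. For nascent chain and tail-anchor targeting, DESeq2 called 1 lower, and omissions gave 0 to 1 higher and 0 to 2 lower. For 7SL transcription and processing, higher calls (2) were 1 with a filter at 50 or scaling by total count, 4 in DESeq2, 4 with the replicate block in limma and 4 with it in edgeR, and 0 to 9 with a library left out. Other 7SL copies called lower (16) were 50 without a filter, when all copies were tested, 3 with a filter at 50, which leaves out most copies, and 5 to 17 with a library left out. The block changed the calls of SEC61B, POLR3G and POLR3GL and of no other gene named here. Where a call was lost or gained through a scaling, a tool or an omission, the cause was not tested. Depth limits RN7SL4P and the low copies, which rest on few reads in each ORC1 IP.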
